A study of Mus musculus with 16 samples.

Results

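The 10 genes described here encode the core of the microRNA machinery: the Microprocessor nuclease *Drosha*, the exportin *Xpo5*, the nuclease *Dicer1*, the Argonautes *Ago1*, *Ago2*, *Ago3* and *Ago4*, and the GW182 proteins *Tnrc6a*, *Tnrc6b* and *Tnrc6c*. They are 10 of the 24421 gene symbols counted in each library. They were taken by symbol, and the group was chosen by the CPM of *Ago2*, which was lower in *Nlrp3*-/- cells, so values between the genotypes are a description from which nothing is read, given without p, while values between the 2 cell subsets are tested. *Ago2* was lower in *Nlrp3*-/- cells of both subsets, by 5.33-fold in M-MDSCs and 4.35-fold in G-MDSCs. Between the subsets, *Ago2*, *Tnrc6a* and *Tnrc6b* were higher and *Drosha* and *Dicer1* lower in G-MDSCs than in M-MDSCs, in WT and in *Nlrp3*-/- mice. Scaled by library size only, *Ago2* in WT mice, *Tnrc6a* in both genotypes and *Tnrc6b* in *Nlrp3*-/- mice kept their sign but passed no threshold. *Drosha* in WT mice did not pass it without G-MDSC WT replicate 3.

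Both subsets are myeloid-derived suppressor cells, immature myeloid cells that accumulate in tumor-bearing hosts. Monocytic cells (M-MDSCs) and granulocytic cells (G-MDSCs) were sorted from the spleens of 4 WT mice and 4 *Nlrp3*-/- mice, one mouse per RNA sample, which gave 4 groups of 4 libraries and 16 libraries in all. All 8 mice were C57BL/6 and carried a B16.F10 melanoma, a mouse melanoma line, implanted under the skin of the back. Cells of tumor-free mice were not analysed here. WT mice were C57BL/6J animals bought from a supplier, whereas the *Nlrp3*-/- mice came from another laboratory. Their *Nlrp3* gene, a sensor of the inflammasome, was disrupted in the germline by an EGFP cassette with an SV40 poly(A) signal placed at the start codon in exon 2, so every cell of the mouse lacked it, tumor cells excepted. The study's methods describe mice matched for sex and age, and the day of the sort was not given for these libraries. The labels give the M-MDSC and G-MDSC libraries of one replicate number and genotype the same animal code, and they are taken here as cells of one mouse.

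As background, a microRNA is cut from its primary transcript in the nucleus by DROSHA, carried to the cytoplasm by exportin-5 and cut again by DICER. One strand is then held by an Argonaute protein, which finds target mRNAs by base pairing with the seed of the microRNA. TNRC6 proteins bind Argonautes and recruit deadenylases, so that the target is translated less and decays. AGO2 is the Argonaute that can also cut a perfectly paired target itself. In myeloid cells microRNAs are known for tuning differentiation and inflammatory responses.

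Reads came from QuantSeq 3′ libraries, which are primed on the poly(A) tail and report one end of a transcript. Libraries held 2295967 to 6079866 counts, and values are CPM, the counts of a gene per 1000000 counts of the library after TMM scaling over the 16 libraries, a scale on which 3 counts are 0.349 to 1.17 CPM. *Nlrp3*, the targeted gene, was at 40.7 to 88.9 CPM in WT M-MDSCs, 0.514 to 1.88 CPM in *Nlrp3*-/- M-MDSCs, 252 to 331 CPM in WT G-MDSCs and 5.51 to 13.6 CPM in *Nlrp3*-/- G-MDSCs. The cell labels were checked against markers. The 8 monocytic markers, *Ly6c2*, *Ccr2* and *Csf1r* among them, summed to 6172 to 9917 CPM in M-MDSCs and 692 to 1252 CPM in G-MDSCs. Of the 11 granulocytic markers 10 were among the symbols, and these summed to 115343 to 175732 CPM in G-MDSCs and 1456 to 8758 CPM in M-MDSCs. *Ly6g*, which gives the antigen of the granulocytic sort, was not among the symbols used here. M-MDSC WT replicate 2 stood apart, at 8758 CPM of granulocytic markers against 1456 to 2554 CPM in the other 7 M-MDSC libraries. Where leaving it out changes a call of the 10 genes or a count of pathway genes, the value without it is given.

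**Figure D1:**
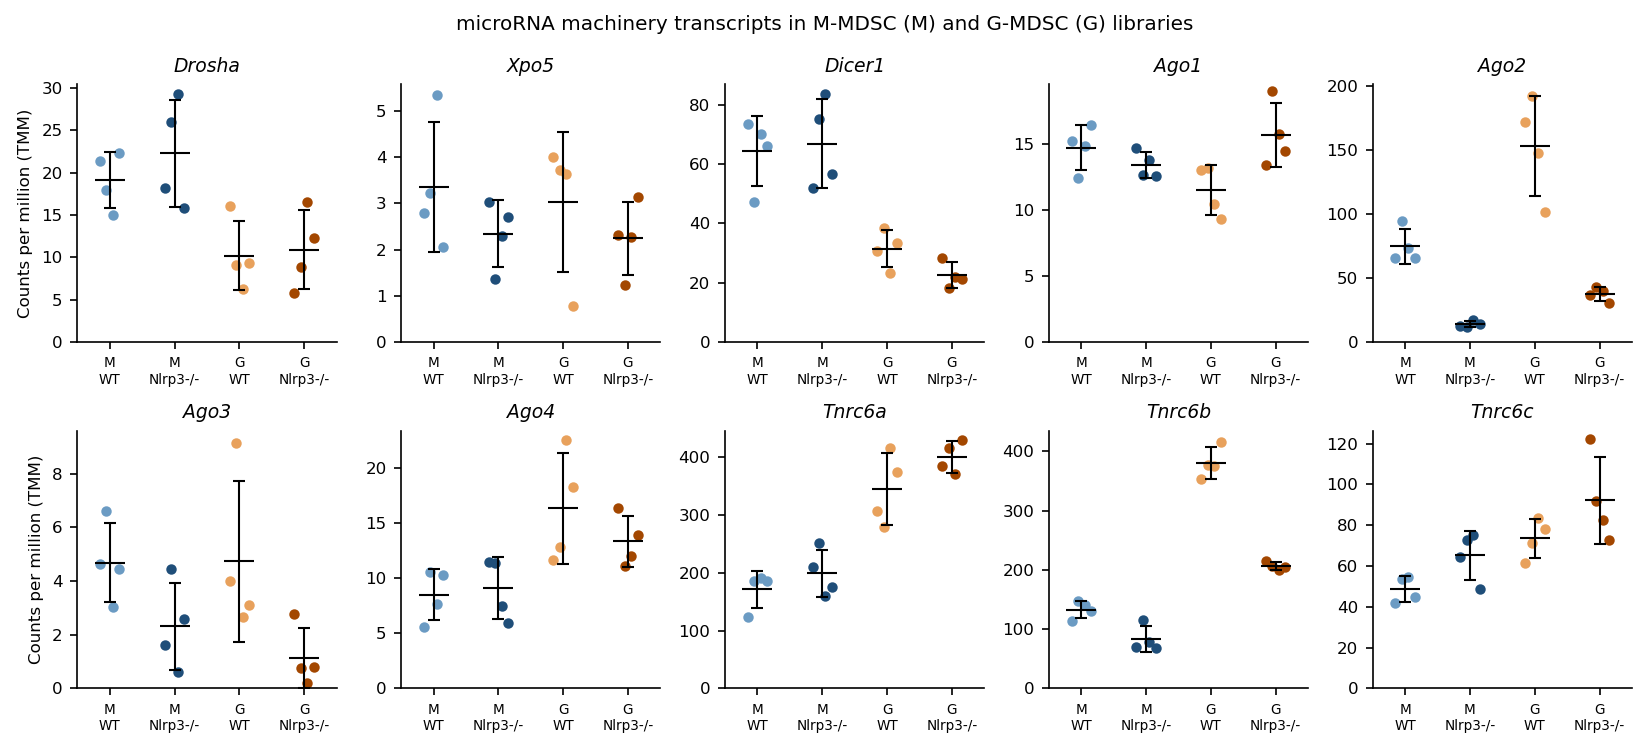
Each panel shows 1 gene, with the 4 libraries of each group as points (CPM on the y axis, from 0) and the mean with its SD as a bar. *Ago2* sits between 11.9 and 16.7 CPM in *Nlrp3*-/- M-MDSCs against 65.1 to 94.6 CPM in WT M-MDSCs, and *Tnrc6b* between 199 and 215 CPM in *Nlrp3*-/- G-MDSCs against 353 to 417 CPM in WT G-MDSCs.

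The comparison of G-MDSCs with M-MDSCs within a genotype asks how the machinery differs between the subsets. In WT mice 7 of the 10 genes were called, 5 higher and 2 lower in G-MDSCs, where a call is a false discovery rate under 0.05 with a fold change above 1.5 in either direction by edgeR's quasi-likelihood test across all 9739 genes tested. Of all genes tested, 26.3% were called higher and 27.1% lower, so calls were common in this contrast. In *Nlrp3*-/- mice 5 of the 10 were called, 3 higher and 2 lower, beside 23.7% of the 10071 genes tested called higher and 27.4% called lower. The 4 libraries of one subset lay wholly above the 4 of the other for 6 of the 10 genes in WT mice and for 4 in *Nlrp3*-/- mice, against 51.9% and 50.2% of all genes tested. For genes without overlap the exact two-sided permutation test must give 0.0286, the smallest p that 4 against 4 allows. It restates that the groups do not overlap and adds no support. Neither this test nor the main quasi-likelihood fits used the pairing of libraries by mouse. The WT count of 7 became 4 without G-MDSC WT replicate 3 and stayed at 7 without M-MDSC WT replicate 2. All 10 genes passed the filter on low counts in each of the comparisons.

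Scaling bears on every direction in this contrast, since the 20 most abundant genes took 27.9 to 43.2% of the counts in G-MDSCs and 15.2 to 30.0% in M-MDSCs. With TMM the genes tested had a median log2 fold change of -0.05 in WT and -0.12 in *Nlrp3*-/- mice, and with library size only it was -0.79 and -0.83. Relative to that median *Tnrc6b* in WT mice was at 1.57 under TMM and at 1.56 under library size only. A change of scaling shifts every gene by nearly the same amount, so this closeness was fixed in advance and adds no support. Of the genes called, 50.8% in WT and 53.6% in *Nlrp3*-/- mice were lower in G-MDSCs with TMM, and 81.3% and 81.5% with library size only. Markers of B cells also moved with the subset, with the 6 markers summing to 108 to 223 CPM in M-MDSCs and 269 to 447 CPM in G-MDSCs. The 7 markers of T and NK cells lay apart as well, at 44.5 to 68.1 CPM in M-MDSCs against 91.6 to 136 CPM in G-MDSCs of WT mice, and at 59.8 to 113 against 117 to 144 CPM in *Nlrp3*-/- mice. In *Nlrp3*-/- mice so did the 12 markers of dendritic cells and macrophages, at 157 to 286 CPM in M-MDSCs and 385 to 525 CPM in G-MDSCs, and the 7 of eosinophils and basophils, at 8.26 to 22.3 and 24.4 to 42.0 CPM. In WT mice the dendritic and macrophage markers overlapped between the subsets, and those of eosinophils and basophils overlapped through M-MDSC WT replicate 2 at 25.3 CPM, with 3.57 to 5.95 CPM in the other 3 M-MDSC libraries and 19.7 to 29.6 CPM in G-MDSCs. The part of these markers in the results was not tested. In bulk samples such as these, fewer cells of a type and less RNA per cell cannot be told apart.

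*Drosha* (chr15:12824815-12935291, plus strand in mm10, as for the loci that follow), the nuclease that makes the first cut, was lower in G-MDSCs. Levels in WT mice were 21.4, 18.0, 15.0 and 22.3 CPM in M-MDSCs (replicates 1 to 4, the order used throughout) and 16.03, 9.14, 6.30 and 9.34 CPM in G-MDSCs. The single G-MDSC value of 16.03 CPM overlapped the M-MDSC range, and the other 3 lay below it. The log2 fold change was -0.91 (SE 0.29), with an adjusted p of 0.0196 by the quasi-likelihood test, and without G-MDSC WT replicate 3 it was -0.71, no longer called (adjusted p = 0.0548). Its *Nlrp3*-/- values were 18.1, 25.9, 29.2 and 15.8 CPM in M-MDSCs and 5.78, 8.89, 16.6 and 12.3 CPM in G-MDSCs. These groups overlapped in 1 library as well, and the log2 fold change was -1.13 (SE 0.33, adjusted p = 0.00939).

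*Xpo5* (chr17:46202782-46243598, plus strand), whose product carries the precursor hairpin out of the nucleus, was close to the limit of these libraries. Its values in WT mice were 2.79, 3.23, 5.35 and 2.06 CPM in M-MDSCs and 4.01, 3.72, 3.63 and 0.778 CPM in G-MDSCs. Among *Nlrp3*-/- libraries the levels were 3.02, 1.36, 2.297 and 2.70 CPM in M-MDSCs and 2.31, 1.23, 2.28 and 3.15 CPM in G-MDSCs. All 4 groups overlapped, at 2 to 30 counts per library. A difference between the subsets was not detectable at this depth, with log2 fold changes of -0.14 (SE 0.47, adjusted p = 0.809) and -0.20 (SE 0.56, adjusted p = 0.784).

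*Dicer1* (chr12:104687742-104751952, minus strand), which cuts the hairpin to a duplex, was lower in G-MDSCs of both genotypes with no overlap. WT libraries were at 73.6, 47.1, 70.1 and 66.1 CPM in M-MDSCs and 30.7, 38.2, 23.3 and 33.5 CPM in G-MDSCs. This was a 2.04-fold lower level (log2 fold change -1.03, SE 0.21) with an adjusted p of 0.00109. For *Nlrp3*-/- mice the values were 51.9, 75.1, 83.5 and 56.8 CPM in M-MDSCs and 28.4, 18.0, 22.0 and 21.2 CPM in G-MDSCs. Every G-MDSC library lay under every M-MDSC library, and the level was 3.20-fold lower (log2 fold change -1.68, SE 0.22, adjusted p = 1.67e-05).

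*Ago1* (chr4:126435012-126468583, minus strand), an Argonaute that acts through the TNRC6 proteins, was not called between the subsets. In WT mice it was at 15.2, 12.4, 14.8 and 16.4 CPM in M-MDSCs and at 13.02, 13.2, 10.4 and 9.34 CPM in G-MDSCs. Libraries of *Nlrp3*-/- mice were at 14.7, 12.6, 13.8 and 12.6 CPM in M-MDSCs and 13.4, 19.0, 15.7 and 14.4 CPM in G-MDSCs. The groups overlapped in both genotypes. Log2 fold changes were -0.35 (SE 0.23, adjusted p = 0.216) and 0.10 (SE 0.25, adjusted p = 0.748), and with library size only *Ago1* was called lower in both.

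*Ago2* (chr15:73095844-73184935, minus strand), the slicing Argonaute, was higher in G-MDSCs of both genotypes. Its values in WT mice were 65.8, 94.6, 73.0 and 65.1 CPM in M-MDSCs and 171, 192, 147 and 102 CPM in G-MDSCs. The lowest G-MDSC library stood just above the highest M-MDSC library, which was replicate 2, and the difference was 2.05-fold (log2 fold change 1.03, SE 0.21, adjusted p = 0.00123). Without M-MDSC WT replicate 2 it was 1.11, and with library size only it was 0.28 and not called (adjusted p = 0.216). In *Nlrp3*-/- mice *Ago2* was at 12.3, 11.9, 16.7 and 14.3 CPM in M-MDSCs and at 36.3, 43.0, 39.4 and 30.4 CPM in G-MDSCs. The groups were far apart, at a 2.50-fold higher level in G-MDSCs (log2 fold change 1.32, SE 0.22, adjusted p = 0.000191).

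*Ago3* (chr4:126331704-126429556, minus strand), which shares a chromosome 4 cluster with *Ago1* and *Ago4*, had the fewest counts of the Argonautes, from 1 to 47 per library. WT libraries were at 4.65, 6.61, 3.03 and 4.45 CPM in M-MDSCs and 4.01, 9.14, 2.67 and 3.11 CPM in G-MDSCs. Levels in *Nlrp3*-/- mice were 1.63, 4.44, 0.627 and 2.57 CPM in M-MDSCs and 2.77, 0.741, 0.207 and 0.787 CPM in G-MDSCs. The subsets overlapped in both genotypes and no difference was detectable, with log2 fold changes of -0.00 (SE 0.43, adjusted p = 0.993) and -1.14 (SE 0.79, adjusted p = 0.244).

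*Ago4* (chr4:126489541-126533472, minus strand), another Argonaute that binds microRNAs, was higher in WT G-MDSCs. There it was at 11.7, 12.9, 22.5 and 18.3 CPM, against 5.57, 10.5, 7.67 and 10.3 CPM in WT M-MDSCs. The groups did not overlap, and the log2 fold change of 0.95 (SE 0.30) had an adjusted p of 0.0175. The call was lost without M-MDSC WT replicate 1 (0.76, adjusted p = 0.0579), without M-MDSC WT replicate 3 (0.86, adjusted p = 0.0580) and without G-MDSC WT replicate 3 (0.76, adjusted p = 0.0613). In *Nlrp3*-/- mice *Ago4* was at 11.5, 11.4, 7.52 and 5.91 CPM in M-MDSCs and at 16.4, 11.1, 12.02 and 13.9 CPM in G-MDSCs. One G-MDSC library lay within the M-MDSC range, and the log2 fold change of 0.44 (SE 0.32, adjusted p = 0.264) was not called. With library size only it was 0.22 in WT mice and turned to -0.28 in *Nlrp3*-/- mice.

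*Tnrc6a* (chr7:123123885-123195296, plus strand) encodes GW182, the scaffold that joins Argonautes to the deadenylases. Levels in WT mice were 123, 186, 191 and 186 CPM in M-MDSCs and 307, 280, 416 and 375 CPM in G-MDSCs, and the groups did not overlap. It was 2.01-fold higher in G-MDSCs (log2 fold change 1.01, SE 0.19, adjusted p = 0.000684). In *Nlrp3*-/- mice it was at 210, 251, 159 and 175 CPM in M-MDSCs and at 384, 416, 371 and 430 CPM in G-MDSCs. Again every G-MDSC library was above every M-MDSC library, by 1.86-fold (log2 fold change 0.90, SE 0.17, adjusted p = 0.000434). With library size only the log2 fold changes were 0.26 (adjusted p = 0.271) and 0.17 (adjusted p = 0.370), neither called.

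*Tnrc6b* (chr15:80711313-80941085, plus strand), a second GW182 protein, had the largest log2 fold change between the subsets of the 10 genes in WT mice. It was at 114, 147, 140 and 130 CPM in WT M-MDSCs and at 353, 377, 375 and 417 CPM in WT G-MDSCs. The difference was 2.87-fold (log2 fold change 1.52, SE 0.15, adjusted p = 4.03e-06), and it was called with library size only as well (0.77). Among *Nlrp3*-/- libraries the levels were 70.5, 115, 78.7 and 67.4 CPM in M-MDSCs and 215, 206, 199 and 205 CPM in G-MDSCs. The groups did not overlap and the difference was 2.31-fold (log2 fold change 1.21, SE 0.18, adjusted p = 5.38e-05), which with library size only was 0.49, under the minimum fold.

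*Tnrc6c* (chr11:117654289-117763439, plus strand), the third GW182 protein, had the smallest log2 fold changes of the 3. In WT mice it was at 41.8, 53.6, 54.4 and 44.9 CPM in M-MDSCs and at 61.4, 71.4, 83.6 and 78.2 CPM in G-MDSCs. The groups did not overlap, yet the log2 fold change of 0.60 (SE 0.17, adjusted p = 0.00865) lay just over the minimum of 0.585, and with library size only it turned to -0.15. It fell under the minimum without M-MDSC WT replicate 1 (0.49), M-MDSC WT replicate 4 (0.51), G-MDSC WT replicate 3 (0.54) or G-MDSC WT replicate 4 (0.580). For *Nlrp3*-/- mice the values were 64.3, 72.8, 75.4 and 48.7 CPM in M-MDSCs and 122, 91.8, 82.5 and 72.9 CPM in G-MDSCs. These groups overlapped, and the log2 fold change of 0.39 (SE 0.20, adjusted p = 0.11) was not called.

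**Figure D2:**
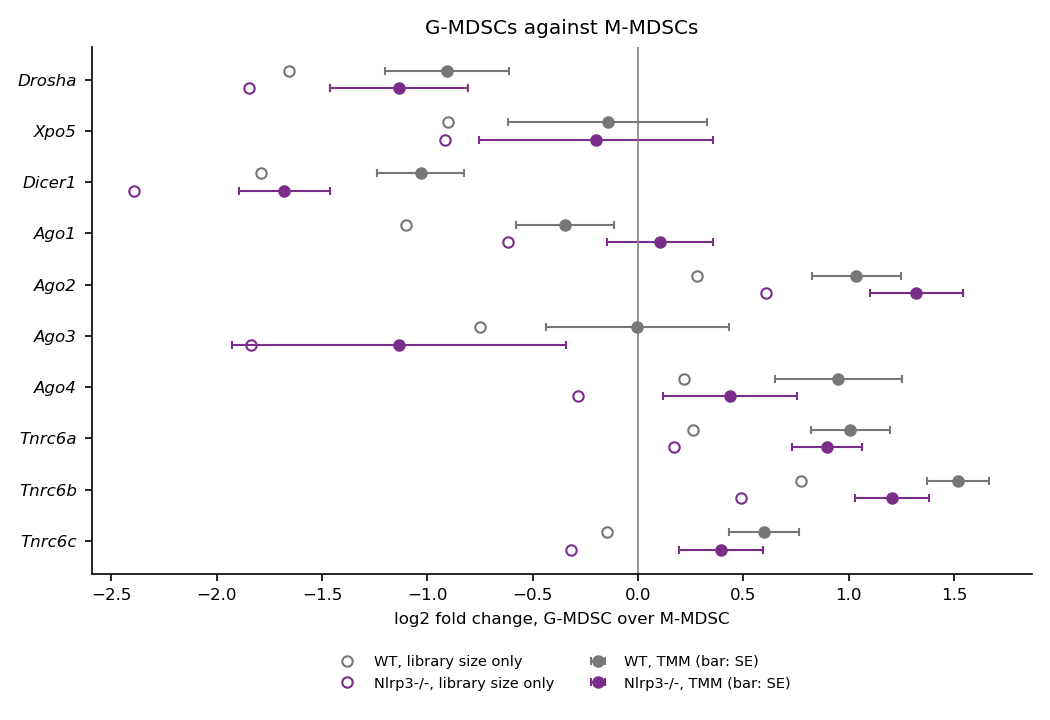
The log2 fold change of G-MDSCs over M-MDSCs (x axis) is shown for each of the 10 genes in WT (grey) and *Nlrp3*-/- (purple) mice, filled points with SE bars for TMM scaling and open points for library size only. *Dicer1* lies at -1.03 and -1.68 and *Tnrc6b* at 1.52 and 1.21 under TMM, and the open points lie lower for each gene.

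Of the 10 genes, 9 had a promoter in the RefSeq table for GRCm38.p6. The 250 bases before the start are printed for *Tnrc6a*, *Tnrc6b* and *Ago4*, which were called higher in WT G-MDSCs and went up and down together over the 16 libraries, and for *Dicer1*, which was called lower. Pearson r was taken over the deviations of log2 CPM from the group means, points that share libraries, depth and scaling. It was 0.79 for *Ago4* with *Tnrc6a*, 0.63 for *Tnrc6a* with *Tnrc6b* and 0.54 for *Ago4* with *Tnrc6b*. These genes are not a set apart. *Tnrc6c*, also called higher in WT G-MDSCs but not printed, had 0.59 with *Ago4*, 0.57 with *Tnrc6b* and 0.35 with *Tnrc6a*. Capitals mark the GC box letters GGGCGG and the CCAAT letters on either strand, where neighbouring matches can overlap. Of 32851 such windows, 32.7% hold GGGCGG and 33.8% hold CCAAT. The windows lie at chr7:123123635-123123884 on the plus strand for *Tnrc6a*, chr15:80711063-80711312 on the plus strand for *Tnrc6b*, chr4:126533459-126533708 on the minus strand for *Ago4* and chr12:104751953-104752202 on the minus strand for *Dicer1*.
Tnrc6a: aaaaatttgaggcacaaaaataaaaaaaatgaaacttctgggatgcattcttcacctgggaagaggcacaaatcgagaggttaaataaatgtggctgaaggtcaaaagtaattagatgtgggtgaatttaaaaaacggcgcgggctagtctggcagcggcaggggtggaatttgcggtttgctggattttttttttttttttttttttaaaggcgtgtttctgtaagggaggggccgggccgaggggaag
Tnrc6b: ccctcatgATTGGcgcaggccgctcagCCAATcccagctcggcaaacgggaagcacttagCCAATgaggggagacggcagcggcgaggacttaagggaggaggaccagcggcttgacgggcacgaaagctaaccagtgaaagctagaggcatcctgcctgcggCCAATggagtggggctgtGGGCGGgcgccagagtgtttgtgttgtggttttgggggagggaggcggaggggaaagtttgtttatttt
Ago4: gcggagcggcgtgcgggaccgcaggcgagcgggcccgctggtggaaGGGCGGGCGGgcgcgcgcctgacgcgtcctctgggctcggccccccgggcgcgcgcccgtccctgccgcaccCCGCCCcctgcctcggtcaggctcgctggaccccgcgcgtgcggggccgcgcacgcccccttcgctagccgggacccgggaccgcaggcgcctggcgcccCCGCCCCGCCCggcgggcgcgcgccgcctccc
Dicer1: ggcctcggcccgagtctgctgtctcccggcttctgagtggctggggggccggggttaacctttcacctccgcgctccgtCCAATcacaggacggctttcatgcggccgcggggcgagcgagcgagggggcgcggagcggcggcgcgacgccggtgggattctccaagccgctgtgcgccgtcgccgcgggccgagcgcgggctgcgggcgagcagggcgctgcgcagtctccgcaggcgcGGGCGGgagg
The RefSeq start of *Ago4* differs from that of its locus above, which ends at 126533472, so its window reaches into that gene. The *Ago4* window held 5 matches to GGGCGG and none to CCAAT, and that of *Tnrc6b* held 1 and 4. The table has a second *Tnrc6b* start, whose window at chr15:80798360-80798609 on the plus strand is not printed and held neither set of letters. The *Dicer1* window held 1 of each. Neither set of letters was found in the *Tnrc6a* window or in that of *Tnrc6c*, which is not printed. This says only that these letters are not in those 250 bases.

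The comparison of the genotypes within a subset asks how the machinery differs without *Nlrp3*, and *Ago2* leads it because its difference chose the group. In M-MDSCs it was at 74.6 ± 13.8 CPM in WT (SD, n = 4) and 13.8 ± 2.18 CPM in *Nlrp3*-/- mice, with all 4 *Nlrp3*-/- libraries below all 4 WT libraries. The log2 fold change was -2.41 (SE 0.19), lower than that of all but 22 of the 9986 genes tested, and without M-MDSC WT replicate 2 it was -2.27. In G-MDSCs it was at 153 ± 38.8 CPM in WT (SD, n = 4) and 37.3 ± 5.31 CPM in *Nlrp3*-/- mice, again without overlap. The log2 fold change was -2.12 (SE 0.21), with 85 of the 9273 genes tested lower than it. Nothing is read from either rank, since this difference chose the group. With offsets for the GC content and length of transcripts the log2 fold change was -1.98 in M-MDSCs and -1.58 in G-MDSCs.

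*Tnrc6b* was the other gene past the threshold for a call in both subsets, which here only describes it, as for the calls between genotypes that follow. In M-MDSCs it was at 133 ± 14.5 CPM in WT and 82.9 ± 21.9 CPM in *Nlrp3*-/- mice (SD, n = 4), where replicate 2 of *Nlrp3*-/-, at 115 CPM, overlapped the lowest WT library at 114 CPM. Its log2 fold change was -0.66 (SE 0.18). It lost its call without M-MDSC WT replicate 2, 3 or 4 or *Nlrp3*-/- replicate 1, 3 or 4, with log2 fold changes from -0.67 to -0.60 in those fits. In G-MDSCs it was at 380 ± 26.6 CPM in WT and 206 ± 6.45 CPM in *Nlrp3*-/- mice (SD, n = 4), without overlap and with a log2 fold change of -0.97 (SE 0.14). With the GC and length offsets *Tnrc6b* was at -0.13 in M-MDSCs and -0.28 in G-MDSCs, and was called in neither. All 10 genes have a longest coding transcript above the median length of 3064 bases of the genes tested, from 4570 bases for *Drosha* to 17332 bases for *Tnrc6b*.

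The remaining 8 genes were not called between the genotypes in either subset, although *Ago3* was close in G-MDSCs. *Ago3* was at 4.69 ± 1.47 and 2.32 ± 1.62 CPM in WT and *Nlrp3*-/- M-MDSCs and at 4.73 ± 2.99 and 1.13 ± 1.13 CPM in WT and *Nlrp3*-/- G-MDSCs (SD, n = 4 each). In G-MDSCs its log2 fold change of -2.13 was close to that of *Ago2* but with an SE of 0.71, on 1 to 12 counts in the *Nlrp3*-/- libraries, and *Nlrp3*-/- replicate 1 overlapped the WT range. Without G-MDSC *Nlrp3*-/- replicate 1 it was -3.07 and called. It was also called lower in G-MDSCs with DESeq2's Wald test (-2.14), edgeR's exact test with tagwise dispersions (-2.13) and the model of all 16 libraries (-2.04). *Ago1* lay apart in G-MDSCs the other way, from 13.4 to 19.0 CPM in *Nlrp3*-/- libraries against 9.34 to 13.2 CPM in WT, with a log2 fold change of 0.36 (SE 0.27). *Dicer1* was at 0.08 (SE 0.19) in M-MDSCs and -0.57 (SE 0.23) in G-MDSCs, and with the GC and length offsets it was at 0.47 and -0.06.

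Among the other 5 genes, *Tnrc6a* had log2 fold changes of 0.24 (SE 0.20) in M-MDSCs and 0.13 (SE 0.16) in G-MDSCs. With the GC and length offsets they were 0.58 and 0.59, and *Tnrc6a* was called higher in G-MDSCs. *Tnrc6c* was at 0.44 (SE 0.18) and 0.24 (SE 0.19), *Drosha* at 0.24 (SE 0.23) and 0.02 (SE 0.39). *Ago4* was at 0.13 (SE 0.31) and -0.38 (SE 0.29), and *Xpo5* at -0.49 (SE 0.42) and -0.54 (SE 0.57).

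In M-MDSCs 0 of the 10 genes were called higher and 2 lower, beside 3.51% and 7.10% of all genes tested, and 1 did not overlap between the genotypes, beside 19.3%. In G-MDSCs 0 were called higher and 2 lower, beside 4.70% and 11.7%, and 3 did not overlap, beside 24.4%. The rule used these contrasts, so nothing is read from those counts. Of all genes called, 66.9% in M-MDSCs and 71.4% in G-MDSCs were lower with TMM, and 45.4% and 51.9% with library size only. Other markers moved with the genotype. The 12 markers of dendritic cells and macrophages summed to 78.4 to 103 CPM in WT and 157 to 286 CPM in *Nlrp3*-/- M-MDSCs, and to 94.5 to 241 and 385 to 525 CPM in G-MDSCs, with *Xcr1* at 0 in the *Nlrp3*-/- G-MDSC libraries. In G-MDSCs the 8 monocytic markers summed to 692 to 997 CPM in WT and 1031 to 1252 CPM in *Nlrp3*-/- mice, without overlap. The 8 proliferation genes summed to 160 to 552 CPM in WT M-MDSCs, or 160 to 184 CPM without replicate 2, and to 64.7 to 139 CPM in *Nlrp3*-/- M-MDSCs, and to 131 to 446 and 54.6 to 188 CPM in G-MDSCs. In WT M-MDSCs the granulocytic markers summed to 1456 to 8758 CPM, or to 1456 to 1881 CPM without replicate 2. In *Nlrp3*-/- M-MDSCs they summed to 2207 to 2554 CPM. Eosinophil and basophil markers summed to 3.57 to 25.3 CPM in WT M-MDSCs, or to 3.57 to 5.95 CPM without replicate 2. They summed to 8.26 to 22.3 CPM in *Nlrp3*-/- M-MDSCs. In G-MDSCs both sets overlapped between the genotypes. The part of all these markers in the values of the 10 genes was not tested.

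**Figure D3:**
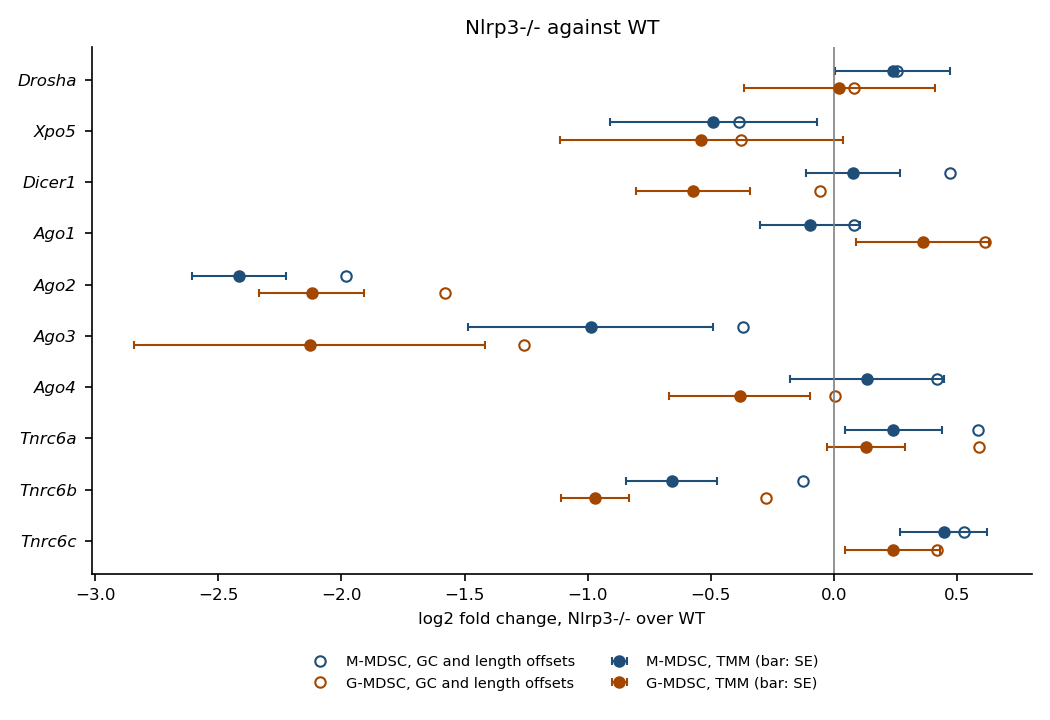
The log2 fold change of *Nlrp3*-/- over WT libraries (x axis) is shown for M-MDSCs (blue) and G-MDSCs (brown), filled points with SE bars for TMM scaling and open points with offsets for GC content and transcript length. *Ago2* stays at -1.98 and -1.58 with the offsets, whereas *Tnrc6b* moves to -0.13 and -0.28.

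Whether the subset difference itself depended on the genotype was tested by an interaction term over all 16 libraries. The term is built partly from the genotype difference of *Ago2* that chose the group, so *Ago2* is given without p. Its term was 0.32 to 0.45 over the 4 alternative fits, from which nothing is read. By edgeR's quasi-likelihood test 0 of the members other than *Ago2* were called. Of these, 0 had an unadjusted p under 0.05, also in the 4 alternative fits. Of the 10696 genes tested 3 were called, or 0.0280%. The term was largest in size for *Ago3* at -1.03 (SE 0.91), which rests on few counts. It was 0.57 (SE 0.31, adjusted p = 0.992) for *Ago1* and -0.54 (SE 0.30, adjusted p = 0.992) for *Dicer1*. For *Tnrc6b* it was -0.20 (SE 0.23, adjusted p = 0.992) and for *Tnrc6a* 0.00 (SE 0.25, adjusted p = 1.00).

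The wider pathway was read from a list of 76 genes sorted by role, of which 66 are not among the 10. In WT mice 61 of these 66 were tested between the subsets, 11 were called higher and 17 lower in G-MDSCs, and their median log2 fold change was -0.05, as for all genes tested. In *Nlrp3*-/- mice 61 were tested, 11 were called higher and 18 lower, with a median of -0.13 beside -0.12 for all genes. With library size only the split was 4 higher and 34 lower in each genotype. Without M-MDSC WT replicate 2 the WT counts were 11 and 18. By role, the group of dicing and loading factors, *Dicer1* included, had 11 tested, 0 called higher and 7 called lower in each genotype, beside 27.1% and 27.4% of all genes called lower. Its medians were -0.88 and -1.18, beside the -0.05 and -0.12 of all genes. With library size only 10 and 9 were lower, with medians of -1.63 and -1.90 beside -0.79 and -0.83. The other 6 called lower there were *Prkra*, *Tsn*, *Tsnax*, *Hspa8*, *Hsp90ab1* and *Fkbp4*, that is a DICER partner, a pair of translin proteins and chaperones of Argonaute loading. Not called were *Adar*, *Hsp90aa1*, *Ptges3* and *Stip1*, at 0.17, 0.10, 0.10 and -0.48 in WT mice. Calls were also common among genes of microRNA and Argonaute turnover, in both directions. Of 14 tested, 5 were higher and 4 lower in WT mice, and 6 and 4 in *Nlrp3*-/- mice. Without M-MDSC WT replicate 2, 15 were tested in WT mice, with 5 higher and 5 lower.

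The 3 called higher in G-MDSCs with the smallest p were *Ddx6*, *Mov10* and *Lin28a* in both genotypes. *Ddx6*, a helicase of processing bodies, had a log2 fold change of 2.32 (SE 0.17, adjusted p = 3.71e-07) in WT and 2.12 (SE 0.15, adjusted p = 5.16e-08) in *Nlrp3*-/- mice. *Mov10*, a helicase found with Argonautes, was at 2.55 and 2.75, and *Lin28a*, which blocks let-7 maturation, at 4.68 and 5.07. *Lin28a* had 1 to 16 counts in WT M-MDSC libraries, 16 of them in replicate 2, and without that library its WT value was 5.76. Lower in G-MDSCs were *Snd1*, a nuclease, at -3.04 and -3.08, and *Limd1*, a bridge between Argonaute and the cap complex, at -1.81 and -1.78. The third gene by p among those lower was *Dcp2*, the decapping enzyme, at -1.24 in WT mice and the chaperone *Hspa8* at -1.56 in *Nlrp3*-/- mice.

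Between the genotypes, 62 of the 66 were tested in M-MDSCs, where 0 were called higher and 7 lower, beside 3.51% and 7.10% of all genes tested. In G-MDSCs 59 were tested, 2 were called higher and 12 lower, beside 4.70% and 11.7%. Leaving out single libraries gave 4 to 11 called in M-MDSCs, with 4 without WT replicate 1, 2 or 4 and 11 without *Nlrp3*-/- replicate 1. In G-MDSCs it gave 8 to 15, with 8 without *Nlrp3*-/- replicate 2. Terminal uridylyl transferase *Tut4* (*Zcchc11* in the files), which tags microRNA precursors, was called in both subsets, at a log2 fold change of -1.41 (SE 0.24) in M-MDSCs and -1.60 (SE 0.18) in G-MDSCs. *Xrn1*, the exonuclease that degrades decapped mRNA, was at -1.42 (SE 0.30) and -1.79 (SE 0.20). Also named by p were *Safb*, a scaffold attachment factor, at -0.995 and *Pabpc1*, the poly(A)-binding protein, at -1.17 in M-MDSCs, and *Tut7* (*Zcchc6* in the files) at -1.23 in G-MDSCs. Called higher in G-MDSCs were *Edc4*, a decapping cofactor, at 0.77 and *Elob* (*Tceb2* in the files), an elongin, at 0.64. With the GC and length offsets the counts were 4 higher and 4 lower in M-MDSCs, and 7 higher and 8 lower in G-MDSCs.

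**Figure D4:**
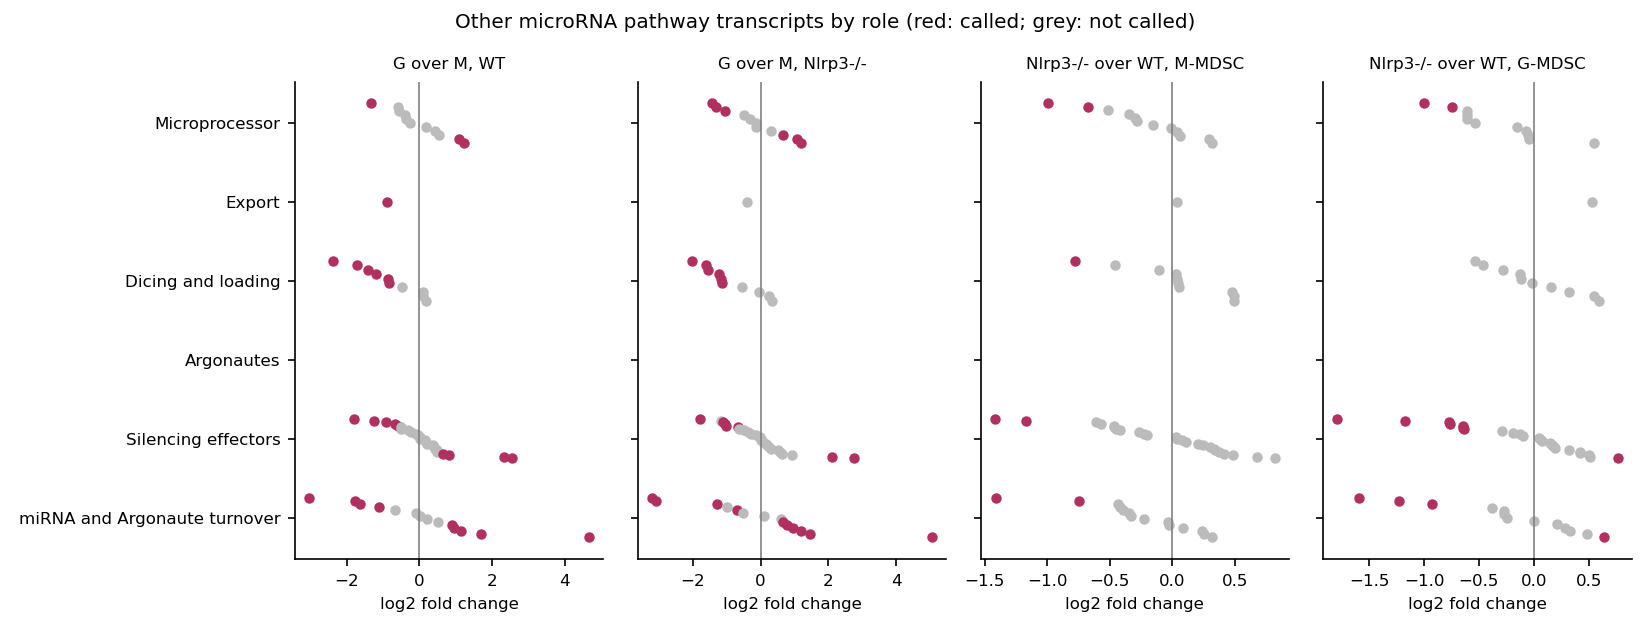
Points are the genes of the pathway list other than the 10, in rows by role, with the log2 fold change on the x axis and called genes in red, for the 4 comparisons. The dicing and loading row has its called genes on the lower side in both subset comparisons, 6 of 10 without *Dicer1* in each.

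Over the 16 libraries, the 5 transcripts with the highest Pearson r of log2 CPM with *Ago2*, the other 9 genes left out, were *Cdk13* (r = 0.97), *Nlrp3* (0.97), *Pkn2* (0.96), *Chd1* (0.95) and *Dnttip2* (0.94). The points share libraries in 4 groups, and with group means removed r was 0.58 for *Cdk13*, 0.35 for *Pkn2*, 0.08 for *Nlrp3*, 0.01 for *Chd1* and -0.24 for *Dnttip2*. *Cdk13*, a cyclin-dependent kinase, was at 92.5 ± 11.6 and 40.1 ± 4.82 CPM in WT and *Nlrp3*-/- M-MDSCs and at 168 ± 22.4 and 71.5 ± 11.7 CPM in WT and *Nlrp3*-/- G-MDSCs (SD, n = 4 each). That is the order of *Ago2*, with WT G-MDSCs highest and *Nlrp3*-/- M-MDSCs lowest. Choosing transcripts by r with *Ago2* over these same libraries favours that order, so nothing is read from it. Of the neighbours in that order for *Ago2*, groups of libraries did not overlap anywhere, with 30.4 to 43.0 CPM in *Nlrp3*-/- G-MDSCs below 65.1 to 94.6 CPM in WT M-MDSCs.

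**Figure D5:**
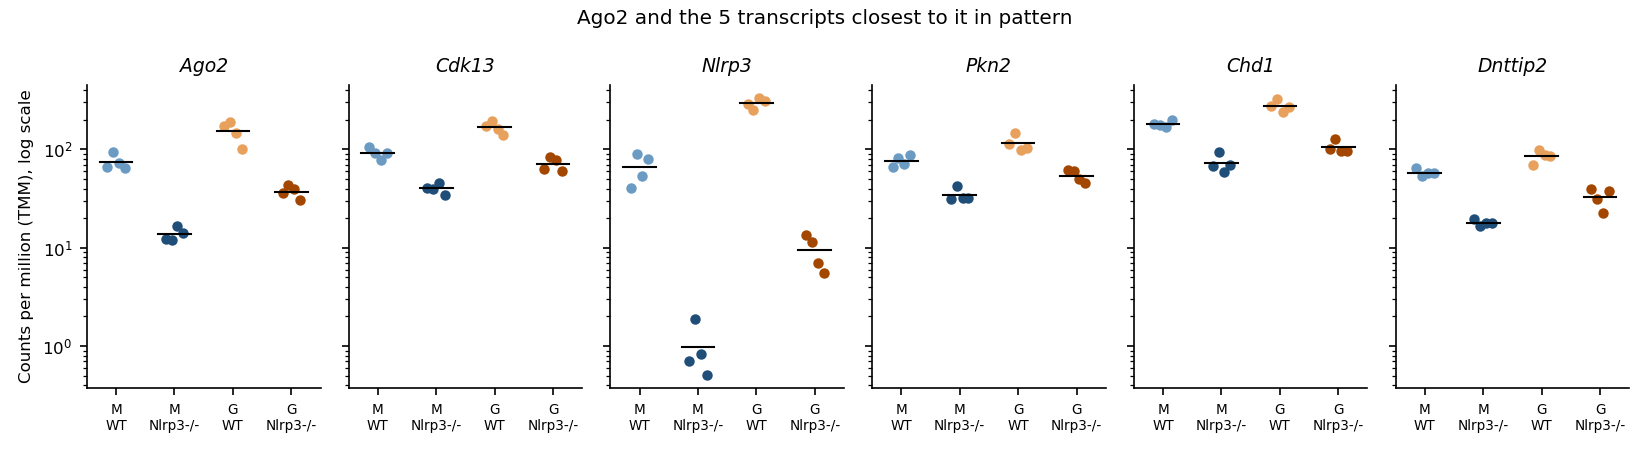
*Ago2* and the 5 transcripts closest to it in pattern are shown by library, with CPM on a log y axis and the group mean as a line. In each panel the WT G-MDSC libraries are highest, *Ago2* there being at 102 to 192 CPM. The 5 were picked by their likeness to *Ago2* over these libraries, which favours that order.

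The microRNAs themselves were not measured, since mature microRNAs carry no poly(A) tail. Of 1180 microRNA gene symbols in the files, 1041 had no count in any of the 16 libraries and 10 passed the filter on low counts, and together these rows held 0.0171 to 0.0326% of a library. Among the 10 was *Mir22hg*, the host transcript of miR-22. It was at 50.0, 118, 83.5 and 87.0 CPM in WT M-MDSCs and at 47.9, 45.2, 37.6 and 49.2 CPM in *Nlrp3*-/- M-MDSCs. In G-MDSCs it was at 237, 216, 234 and 236 CPM in WT and at 158, 148, 159 and 200 CPM in *Nlrp3*-/- mice. *Mir22hg* was chosen after its values were seen, and is given as a description.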

How the data were processed

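Poly(A)-primed QuantSeq 3′ libraries were made with 15 or 17 cycles of amplification, which were not assigned to libraries. The authors mapped reads to mm10 with HISAT2 2.1.0 and counted them per gene and strand with htseq-count, and the deposited files hold raw counts, used as they are. Submitters' notes also name edgeR 3.14.0.

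The software was DESeq2 1.42.0, limma 3.58.1 and edgeR 4.0.16 under R 4.3.3, with figures drawn in Python 3.11 with matplotlib 3.10.9. Each comparison of 4 against 4 libraries used filterByExpr, TMM and the quasi-likelihood test, with Benjamini-Hochberg adjustment over all genes tested. A call needed a false discovery rate under 0.05 and a fold change above 1.5. The SE is the log2 fold change over the root of the F statistic. Log2 CPM had a prior count of 2. The edgeR fits were also run on simulated counts, from which nothing is read here. For the comparisons of groups these were drawn from means pooled over both groups. They therefore do not test scaling between subsets that differ in their most abundant genes. Among 24 library pairs within groups, 0 were identical. Precision from 2295967 to 6079866 counts covers counting error only.

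The members and lists were chosen with earlier results of these data known. The genes named are the 10 members, the 3 other pathway genes with the smallest p called in each direction of each comparison, the 5 closest to *Ago2* by r, and *Nlrp3*. Loci and lengths are from GENCODE mm10 models, with 24033 of 24421 symbols matched, and promoters from RefSeq.

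The labels' descriptions give M-MDSC and G-MDSC libraries of one number and genotype the same animal code, so they were taken as cells of one mouse. Their deviations correlated at 0.0998 to 0.452 in WT and 0.00716 to 0.391 in *Nlrp3*-/- mice. The main fits, the interaction term included, treated these libraries as independent, and only fits with the replicate block used the pairing. Same-numbered WT and *Nlrp3*-/- mice are different animals. Alternatives were other scalings, tests and filters, all 16 libraries in one model, the replicate block, offsets from splines of GC content and length with 4 degrees of freedom each, no fold minimum and leaving out each library. Settings and left-out libraries for the other pathway genes were chosen after seeing the data.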

Additional observations from a re-analysis of the deposited data

Results flagged for a closer look

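Of 40 sets of 4 libraries, 10 genes in 4 groups, 2 held a library far from the other 3 by Dixon's test at the 95% level, where chance gives about 1 in 20. *Xpo5* was at 0.778 CPM in G-MDSC WT replicate 4, on 2 counts, against 3.63 to 4.01 CPM in the other 3 libraries. *Tnrc6a* was at 123 CPM in M-MDSC WT replicate 1, against 186 to 191 CPM in the others, and without that library its log2 fold change between the subsets in WT mice was 0.84 and still called.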

How the results depend on the processing

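Between the subsets, 7 of the 10 genes were called in WT mice. With library size only 4 were, *Drosha*, *Dicer1*, *Tnrc6b* and *Ago1*, of which *Ago1* was not among the 7. Leaving out single libraries under TMM gave 4 to 7 in WT mice and 5 in *Nlrp3*-/- mice each time. Between genotypes it gave 1 to 2 in M-MDSCs and 2 to 3 in G-MDSCs. Between genotypes in M-MDSCs 1 gene, *Ago2*, was called with library size only, upper-quartile scaling, the replicate block, the GC and length offsets, or both together, and in G-MDSCs 1 with block and offsets. *Ago2* was then at -1.98 in M-MDSCs with the offsets or both, and at -1.58 with the offsets and -1.57 with both in G-MDSCs. Other pathway genes called between genotypes went from 7 to 4 in M-MDSCs and from 14 to 7 in G-MDSCs with the block, and to 1 and 4 with block and offsets, while single left-out libraries gave 4 to 11 and 8 to 15. The block changed no call of the 10 genes between the subsets, where it pairs libraries of one animal code, and between genotypes, where samples share only a number (mean correlation -0.17 and -0.19), *Tnrc6b* lost its call in M-MDSCs. The cause of these losses was not tested. Over all genes, 1060 and 1522 were called between genotypes, against 425 and 985 with the block, 651 and 983 with the offsets, and 39 and 392 with both. Leaving out single libraries moved the 1060 to 450 without *Nlrp3*-/- replicate 4, 473 without WT replicate 4, 514 without WT replicate 2, 669 without WT replicate 3, 702 without *Nlrp3*-/- replicate 3 and 1783 without *Nlrp3*-/- replicate 1. The 1522 stayed between 1104 and 1544. With upper-quartile scaling 61.8% of calls were lower in WT G-MDSCs than M-MDSCs, and 60.9% in *Nlrp3*-/- G-MDSCs than WT. With all 16 libraries in one model the latter was 56.6%, and 74.5% and 49.2% respectively for *Nlrp3*-/- M-MDSCs and the *Nlrp3*-/- subset difference.

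Signs turned for values that were not called, save for *Tnrc6c* in WT mice, at -0.15 between the subsets with library size only. With library size only, the subset difference in *Nlrp3*-/- mice was -0.32 for *Tnrc6c*, -0.28 for *Ago4* and -0.62 for *Ago1*, and -0.0513 for *Ago1* with upper-quartile scaling. In WT mice *Ago3* was 0.000630 when all 16 libraries were modelled and 0.00397 with DESeq2's size factors. For the interaction, *Xpo5* was -0.00854 and *Tnrc6a* -0.0914 with library size only, and -0.0202 and -0.0723 with DESeq2's size factors. Leaving out single libraries, *Xpo5* ranged from -0.35 to 0.16 and *Ago3* from -0.53 to 0.22 in WT mice and *Xpo5* from -0.39 to 0.0293 in *Nlrp3*-/- mice between the subsets. The interaction ranged from -0.40 to 0.20 for *Drosha*, -0.24 to 0.26 for *Xpo5*, -0.22 to 0.13 for *Tnrc6a* and -0.32 to 0.00190 for *Tnrc6c*. *Xpo5* and *Ago3*, with as few as 2 and 1 counts, are limited by depth.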
